A study of Mus musculus with 9 samples.

Results

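The genes described here make prostaglandins from arachidonate. They were chosen by name, with their values in these data already known: Ptgs2, Ptges and Ptgds, together with their relatives Ptgs1, Ptges2 and Ptges3. All 6 were among the 11046 genes of the count table, and all 6 passed the filter on low counts. RNA came from 3 untreated mouse tumour lines in culture, each given as genotype WT, and each line had libraries A, B and C (3 of each). 482N1 was labelled lung NSCLC (non-small-cell lung cancer), B16F10-BrM was labelled BRAF mutant melanoma and E0771-BrM triple negative breast cancer. The suffix BrM marks brain metastatic cells. The labels do not say whether A, B and C were separate cultures, so SDs and p-values measure the spread between these libraries, which may be technical. The medium was DMEM for 482N1 and B16F10-BrM but RPMI 1640 plus HEPES for the breast line, so a difference between E0771-BrM and another line cannot be told apart from one of medium.

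Prostaglandin synthesis starts when a phospholipase frees arachidonate from membrane phospholipid. A cyclooxygenase, COX-1 (Ptgs1) or COX-2 (Ptgs2), turns it into the unstable intermediate PGH2, and terminal synthases turn PGH2 into single prostaglandins. Ptgs1 is present at a steady level in many tissues, while Ptgs2 is an inducible early-response gene of inflammation and of many tumours. Ptges encodes the inducible microsomal synthase of PGE2, which is often induced together with Ptgs2. Ptges2 encodes a membrane-associated PGE synthase, and Ptges3 encodes p23, a co-chaperone of HSP90 that was also described as a cytosolic PGE synthase. Ptgds encodes the lipocalin-type PGD synthase, a secreted protein that is abundant in the meninges and choroid plexus of the brain and is also made by melanocytes.

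The promoters of the 3 leading genes are shown because their transcript levels differed most between the lines. Each is the 250 bases before the RefSeq start in build GRCm38.p6, written 5′ to 3′ on the strand of the gene. Capitals mark exact matches, on either strand, to 8 motifs: the TATA box (TATAAA), the cAMP response element core (TGACGT), C/EBP (TTNNGCAA), AP-1 (TGANTCA), the E-box (CACGTG), the GC box (GGGCGG), EGR (GCGNGGGCG) and kappaB.
Ptgs2, chr1:150099781-150100030, plus strand: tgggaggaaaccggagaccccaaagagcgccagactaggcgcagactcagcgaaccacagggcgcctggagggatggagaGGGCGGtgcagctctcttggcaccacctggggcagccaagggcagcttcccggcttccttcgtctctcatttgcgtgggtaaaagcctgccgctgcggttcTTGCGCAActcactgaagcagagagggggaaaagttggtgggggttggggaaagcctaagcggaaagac
Ptges, chr2:30903298-30903547, minus strand: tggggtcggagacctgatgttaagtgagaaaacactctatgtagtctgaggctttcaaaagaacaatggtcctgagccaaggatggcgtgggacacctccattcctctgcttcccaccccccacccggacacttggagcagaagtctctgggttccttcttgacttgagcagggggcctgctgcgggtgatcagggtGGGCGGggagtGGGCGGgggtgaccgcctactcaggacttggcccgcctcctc
Ptgds, chr2:25469750-25469999, minus strand: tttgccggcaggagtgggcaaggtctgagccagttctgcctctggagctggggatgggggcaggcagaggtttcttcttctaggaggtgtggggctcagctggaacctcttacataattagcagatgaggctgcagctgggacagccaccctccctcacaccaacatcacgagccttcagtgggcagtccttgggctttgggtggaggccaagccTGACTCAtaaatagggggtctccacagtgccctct
In the Ptgs2 window a GC box lay at -170 to -165 from the start and a C/EBP match at -69 to -62. The Ptges window held 2 GC boxes, at -53 to -48 and -42 to -37, and the Ptgds window an AP-1 match at -35 to -29. The GC box was found in 32.7% of all 32851 promoter windows of the reference, the C/EBP motif in 9.56% and the AP-1 motif in 6.75%. A stretch of 30 bases just after the annotated Ptgs2 start, examined after the data were seen, holds a cAMP response element core (reverse strand, bases 13 to 18 after the start) that overlaps an E-box (bases 17 to 22).
Ptgs2, chr1:150100033-150100062, plus strand: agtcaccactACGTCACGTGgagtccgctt
Within the 50 bases after the start, 0.947% of promoters hold the former and 1.08% the latter. A match is a description of the letters, and no binding was measured.

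Total counts lay between 7332390 and 9293348 per library, and levels are given as TMM-normalised CPM, which scales counts to library size. The 18S ribosomal RNA gene Rn18s took 11.6 to 13.1% of counts in 482N1 and 6.40 to 8.36% in the other lines. Of the marker lists, 5 of 10 melanocyte genes were measured and summed to 24630 to 25484 CPM in B16F10-BrM, against 2.77 to 28.1 in 482N1 and 103 to 162 in E0771-BrM. The 5 of 10 measured mammary epithelial genes, which include the simple epithelial keratins Krt8 and Krt18, summed to 7399 to 8008 CPM in 482N1 and only 219 to 260 in E0771-BrM. For lung epithelium 2 of 9 genes were measured, Abca3 and Foxa1, with 61.6 to 64.1 CPM in 482N1. For fibroblasts 2 of 9 genes were measured, Col1a2 and Pdgfrb, with at most 2.66 CPM in any library. The lineage of 482N1 and E0771-BrM is therefore taken from the labels. Libraries A and C of 482N1 and of E0771-BrM held more counts of melanin genes than library B (Dct, an enzyme of melanin synthesis, had 142, 14 and 148 counts in 482N1 and 353, 29 and 263 in E0771-BrM). The levels of the 6 genes, and the fits of the other pathway genes, were therefore also computed with only library B of these lines. Values from that setting are printed for few of the other genes. In bulk RNA, fewer cells with a transcript and less of it per cell cannot be told apart.

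The line with the highest level differed between the prostaglandin genes. 482N1 had the most Ptgs2 and Ptges transcript, B16F10-BrM had the most Ptgds and no count of Ptgs2, and E0771-BrM had the most Ptgs1. For every one of the 6 genes the libraries of the 3 lines stood in separate ranges under TMM. Ptges3 overlapped between E0771-BrM and B16F10-BrM when upper-quartile factors were used. The share of all genes with separate ranges was not counted, so the separation is not a result about these genes. Because the genes were chosen for their pattern across the lines, no test is given for them. As background, 77.8% of the 11037 genes tested differed between B16F10-BrM and 482N1 (quasi-likelihood F test of edgeR, with p adjusted by Benjamini-Hochberg and below 0.05), 78.1% between E0771-BrM and 482N1 and 73.7% between E0771-BrM and B16F10-BrM.

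**Figure D1:**
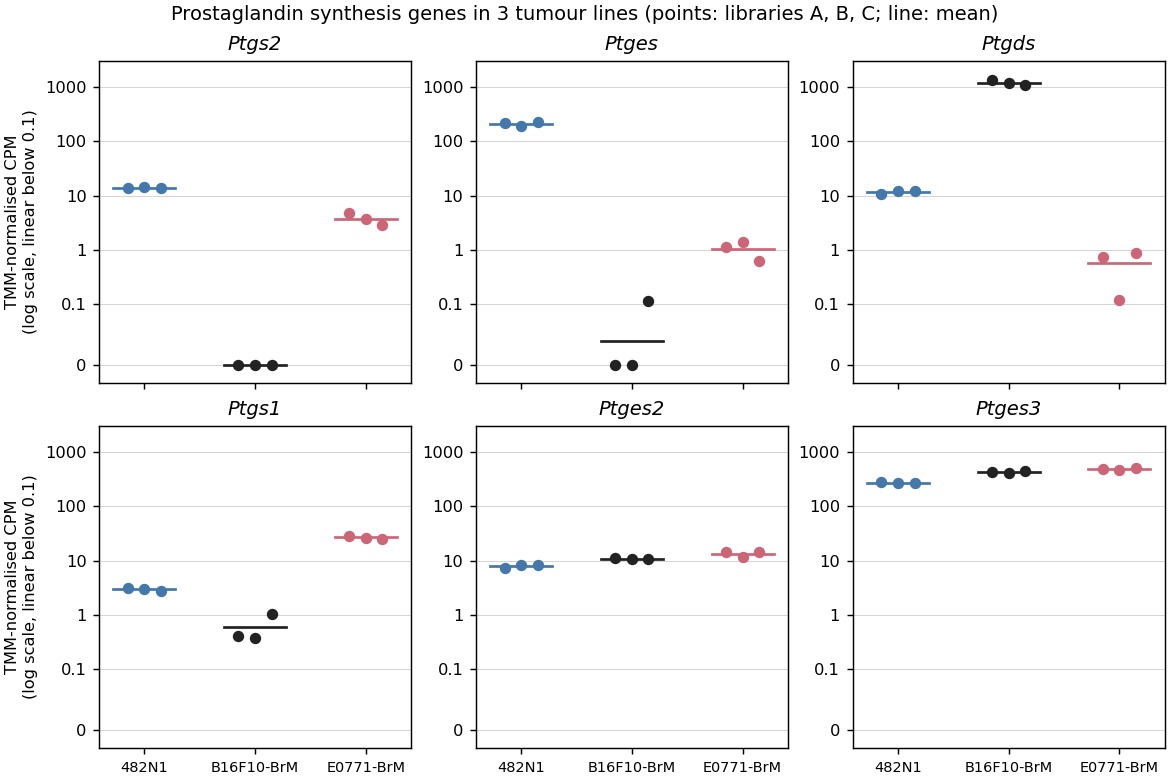
TMM-normalised CPM (log scale, linear below 0.1) of the 6 genes in each library; points are libraries A, B and C from left to right and lines are means of 3. Ptgs2 and Ptges are highest in 482N1, Ptgds in B16F10-BrM (1073 to 1351 CPM) and Ptgs1 in E0771-BrM, while Ptges2 and Ptges3 each vary less between the lines.

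Ptgs2, the inducible cyclooxygenase, had 13.9, 14.3 and 14.1 CPM in libraries A, B and C of 482N1 (108, 119 and 111 counts). It had 4.82, 3.72 and 2.87 CPM in E0771-BrM (38, 31 and 23 counts) and 0 counts in all 3 libraries of B16F10-BrM. All 482N1 libraries were thus above all E0771-BrM libraries, and the means, 14.1 ± 0.199 and 3.803 ± 0.9799 CPM (SD, n = 3), differed 3.71-fold. Against the level that 3 counts over the B16F10-BrM group would give (0.115 CPM), Ptgs2 was at least 123-fold higher in the lung line and at least 33.1-fold higher in E0771-BrM. Floors and intervals cover only counting error, because PCR reads that carry no molecular identifier are not independent molecules. A count of 0 in every library of B16F10-BrM was not particular to Ptgs2: 204 of the 11046 genes (1.85%) shared it, against 46 (0.416%) in 482N1 and 92 (0.833%) in E0771-BrM. Every gene of the table had at least 8 counts in at least 3 libraries. Genes without counts in all lines are therefore missing from these shares.

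The long non-coding RNA gene Ptgs2os2 (lincRNA-Cox2) lies beside Ptgs2 and was looked up after the Ptgs2 values were known. It had 10.2, 6.98 and 8.75 CPM in 482N1, 9.77, 9.60 and 10.5 CPM in E0771-BrM and 0 counts in B16F10-BrM. Both neighbours were therefore without counts in the same line. In the other lines they were not in step, since Ptgs2os2 means were 8.64 ± 1.61 CPM in 482N1 and 9.95 ± 0.463 in E0771-BrM (SD, n = 3), with overlapping libraries. How the authors' counting used the strand is not given in the sources used here. Cd14, a monocyte and macrophage marker, had 238, 231 and 183 counts in 482N1, 78, 73 and 67 in E0771-BrM and 0 in B16F10-BrM, the same order as Ptgs2. Cd68, the other measured gene of 10 leukocyte markers, had the most counts in E0771-BrM (137, 138 and 109). The summed level of both was 24.7 to 34.2 CPM in 482N1, 21.9 to 27.3 in E0771-BrM and 0.502 to 0.625 in B16F10-BrM, and its part in the Ptgs2 result was not tested. Of 8 endothelial markers Flt1 and Egfl7 were measured, and their summed level also had the order of Ptgs2: 90.4 to 104 CPM in 482N1, 35.3 to 37.4 in E0771-BrM and 5.83 to 8.44 in B16F10-BrM. Flt1, a VEGF receptor gene, made up most of it in 482N1 (93.6 CPM, against 6.17 in E0771-BrM and 1 count in B16F10-BrM), whereas Egfl7 was highest in E0771-BrM (30.04 CPM, against 2.89 in 482N1 and 7.51 in B16F10-BrM). The part of these genes in the Ptgs2 result was not tested.

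Ptgs1, the steadily expressed cyclooxygenase, had 28.7, 26.2 and 25.6 CPM in E0771-BrM. It had 3.10, 3.01 and 2.79 CPM in 482N1 and 0.417, 0.376 and 1.05 CPM in B16F10-BrM, where these are 4, 3 and 9 counts. The mean in E0771-BrM (26.8 ± 1.66 CPM, SD, n = 3) was 9.04-fold that of 482N1 and 43.7-fold that of B16F10-BrM. Library C of B16F10-BrM set much of that line's mean, which was 0.614 CPM with it and 0.397 without it.

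Per kilobase of exon, which allows both cyclooxygenases to be set side by side, the lung and breast lines had opposite mixtures. In 482N1 Ptgs2 stood at 3.08 ± 0.0434 and Ptgs1 at 1.03 ± 0.0552 CPM per kb (SD, n = 3). In E0771-BrM the values were 0.830 ± 0.214 for Ptgs2 and 9.35 ± 0.578 for Ptgs1. Ptgs2 made up 73.8, 74.9 and 76.0% of the summed cyclooxygenase level in libraries A, B and C of 482N1, and 9.52, 8.17 and 6.56% in E0771-BrM. In B16F10-BrM the share was 0% and the only cyclooxygenase counts were the 16 of Ptgs1. The lengths are unions of coding-transcript exons (4580 bases for Ptgs2 and 2867 for Ptgs1) in an annotation of the earlier build GRCm38, so they may differ from the gene models counted.

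**Figure D2:**
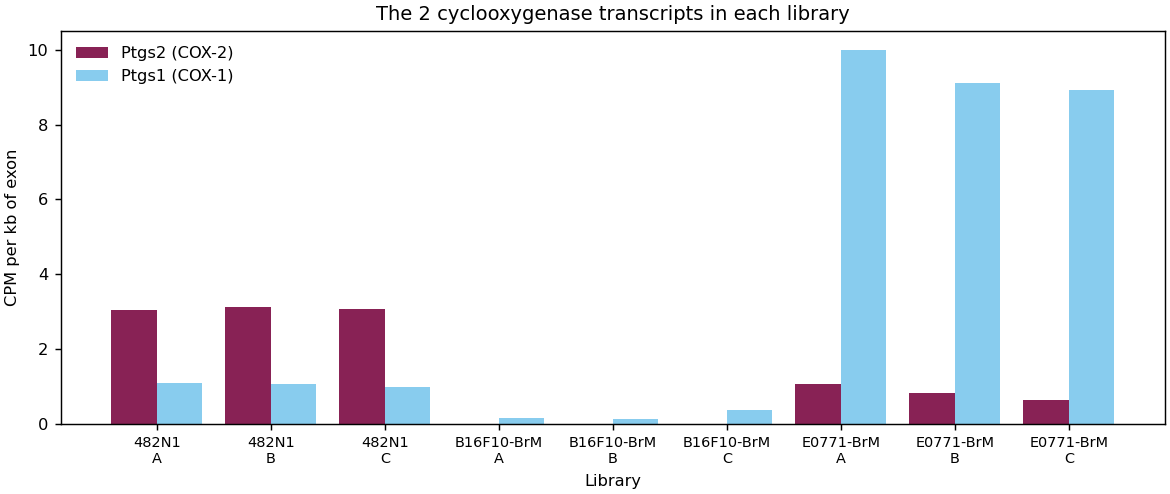
CPM per kilobase of exon of Ptgs2 and Ptgs1 in each of the 9 libraries, as bars from 0. The Ptgs2 bar is the taller one in all 482N1 libraries, the Ptgs1 bar in all E0771-BrM libraries, and B16F10-BrM has no Ptgs2 bar.

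Ptges, the inducible PGE2 synthase, was abundant in 482N1 and scarce elsewhere. Its level was 214, 188 and 229 CPM in 482N1 (1659, 1565 and 1804 counts). In E0771-BrM it had 1.14, 1.44 and 0.623 CPM (9, 12 and 5 counts), and in B16F10-BrM a single count, in library C. The 482N1 mean of 210.3 ± 20.4 CPM was 197-fold the E0771-BrM mean of 1.07 ± 0.413 (SD, n = 3). Against B16F10-BrM the ratio was 5490, with a 95% counting interval of 985 to 216898, and it rests on that 1 count. The 482N1 libraries had both the inducible cyclooxygenase and the inducible PGE2 synthase at their highest, and per kilobase Ptges (57.7 ± 5.59 CPM per kb) was far above Ptgs2.

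Ptges2 and Ptges3 varied less between the lines, by at most 1.71-fold and 1.78-fold. Ptges2, the membrane-associated PGE synthase, had 7.22, 8.31 and 8.24 CPM in 482N1, 11.4, 10.5 and 10.6 in B16F10-BrM and 14.3, 11.9 and 14.3 in E0771-BrM. The lowest E0771-BrM library (11.88) was barely above the highest B16F10-BrM library (11.35). Ptges3, the p23 co-chaperone, had means of 273.6 ± 5.14 CPM in 482N1, 488 ± 22.0 in E0771-BrM and 433 ± 20.8 in B16F10-BrM (SD, n = 3). Its E0771-BrM and B16F10-BrM levels differed 1.13-fold, and these libraries overlapped when upper-quartile factors replaced TMM. RefSeq lists a pseudogene, Ptges3-ps, and how reads shared with it were counted is not given in the sources used here. Per kilobase Ptges3 reached 137 CPM in 482N1, above the 57.7 of Ptges, so by transcript level p23 led the PGE synthase genes in all 3 lines. Ptges3l, a gene named for its likeness to Ptges3 and examined after the values were seen, had 14.6 ± 2.64 CPM in 482N1, 6.10 ± 1.29 in E0771-BrM and 6.78 ± 1.70 in B16F10-BrM (SD, n = 3).

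Ptgds, the PGD2 synthase, was highest in the melanoma line. It had 1351, 1176 and 1073 CPM in B16F10-BrM (12966, 9376 and 9212 counts). In 482N1 it had 10.8, 12.4 and 12.3 CPM (84, 103 and 97 counts), and in E0771-BrM 0.761, 0.120 and 0.873 CPM (6, 1 and 7 counts). The mean in B16F10-BrM was 101-fold that in 482N1 and 2052-fold that in E0771-BrM, and the 482N1 mean was 20.3-fold that in E0771-BrM. Per kilobase Ptgds reached 1279 ± 149 CPM in B16F10-BrM (SD, n = 3), above every other gene of the set in any line.

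The low Ptgds counts outside the melanoma line were set beside those of melanin genes, whose transcripts are also abundant in B16F10-BrM. In libraries A, B and C of 482N1, Ptgds stood at 0.903, 1.03 and 1.02% of its B16F10-BrM level. In the same libraries Dct stood at 0.106, 0.00979 and 0.109%, and Tyrp1, another melanin enzyme, at 0.139, 0 and 0.143%. Ptgds in 482N1 had the higher share in every library and was not lower in library B. In E0771-BrM, Ptgds stood at 0.0634, 0.010 and 0.0727%, below Dct (0.260, 0.0202 and 0.190%) and lowest in library B like Dct, Tyrp1 and the melanosome gene Pmel. With only library B, the E0771-BrM level of Ptgds was 0.120 CPM in place of 0.585, a single count. The E0771-BrM shares of Ptgds rest on 6, 1 and 7 counts. Where the low Ptgds counts of either line come from was not tested.

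**Figure D3:**
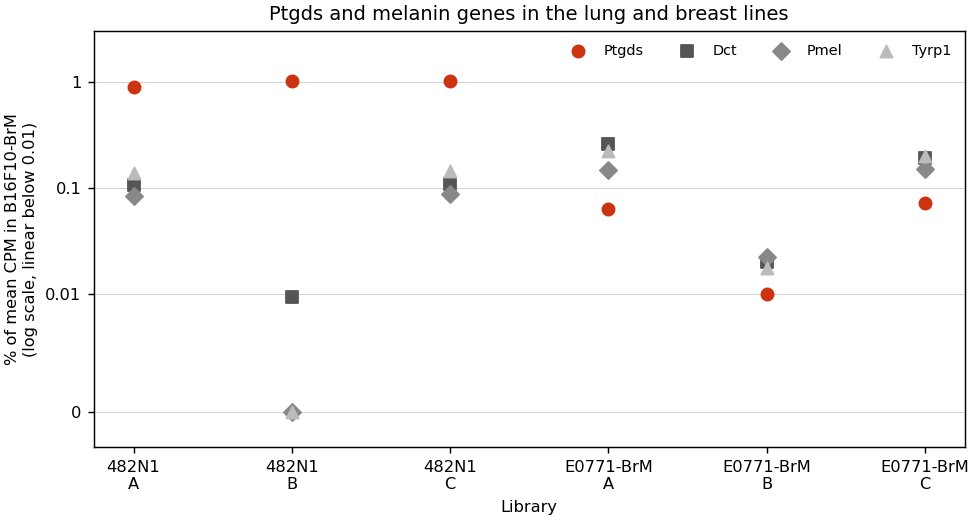
Level of Ptgds and of 3 melanin genes in each 482N1 and E0771-BrM library, as a percentage of the mean level in B16F10-BrM (log scale, linear below 0.01). Ptgds lies near 1% in all 482N1 libraries, above the melanin genes, and at or below 0.0727% in E0771-BrM, under the melanin genes.

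The genes with patterns most like those of the leading 3 were found by the root mean square difference of centred log2 CPM over the 9 libraries, among 10343 genes with the predicted ones left out. For Ptgs2 these were Zfp820, Psd3, Mcpt8, Rnase4 and Emp1, with differences of 0.19 to 0.26. Emp1, an epithelial membrane protein gene, had 571 CPM in 482N1, 128 in E0771-BrM and 6.89 in B16F10-BrM. For Ptges they were Sdcbp2, Btc, Clu, Col8a1 and Egr1, with differences of 0.52 to 0.95. Clu, the gene of the secreted chaperone clusterin, had 3446, 32.7 and 2.30 CPM in the order 482N1, E0771-BrM and B16F10-BrM, and Btc, an EGF-family growth factor gene, 114, 2.38 and 0. For Ptgds they were Patj, Mef2c, Apoe, Sox11 and Aph1c, with differences of 0.84 to 1.39. Apoe, the apolipoprotein E gene, had 19.3, 1.87 and 522 CPM in that order, and the transcription factor gene Mef2c 2.10, 0.376 and 188. With only 3 lines such likeness is common: Pearson's r above 0.98 was reached by 299 genes for Ptgs2, 181 for Ptges and 96 for Ptgds.

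The rest of the pathway was taken from 9 gene lists with 167 genes. Besides the 6 genes above, 101 were measured under their listed symbols. Between B16F10-BrM and 482N1, 37 of the 101 were higher in the melanoma line and 51 lower, where 38.0% of all genes were higher and 39.9% lower. In E0771-BrM against 482N1, 38 were higher and 51 lower, beside 37.7% and 40.4% of all genes. In E0771-BrM against B16F10-BrM, 50 were higher and 38 lower, beside 37.2% and 36.5%. The called shares, both directions together, were 87.1, 88.1 and 87.1%, beside 77.8, 78.1 and 73.7% of all genes. The medians of log2 fold change over the 101 were -0.24, -0.21 and 0.22, where all genes had -0.04, -0.04 and 0.02. Any 2 of these comparisons share a line. Fold changes below are log2 values ± SE from edgeR, and p-values are adjusted over all genes tested.

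**Figure D4:**
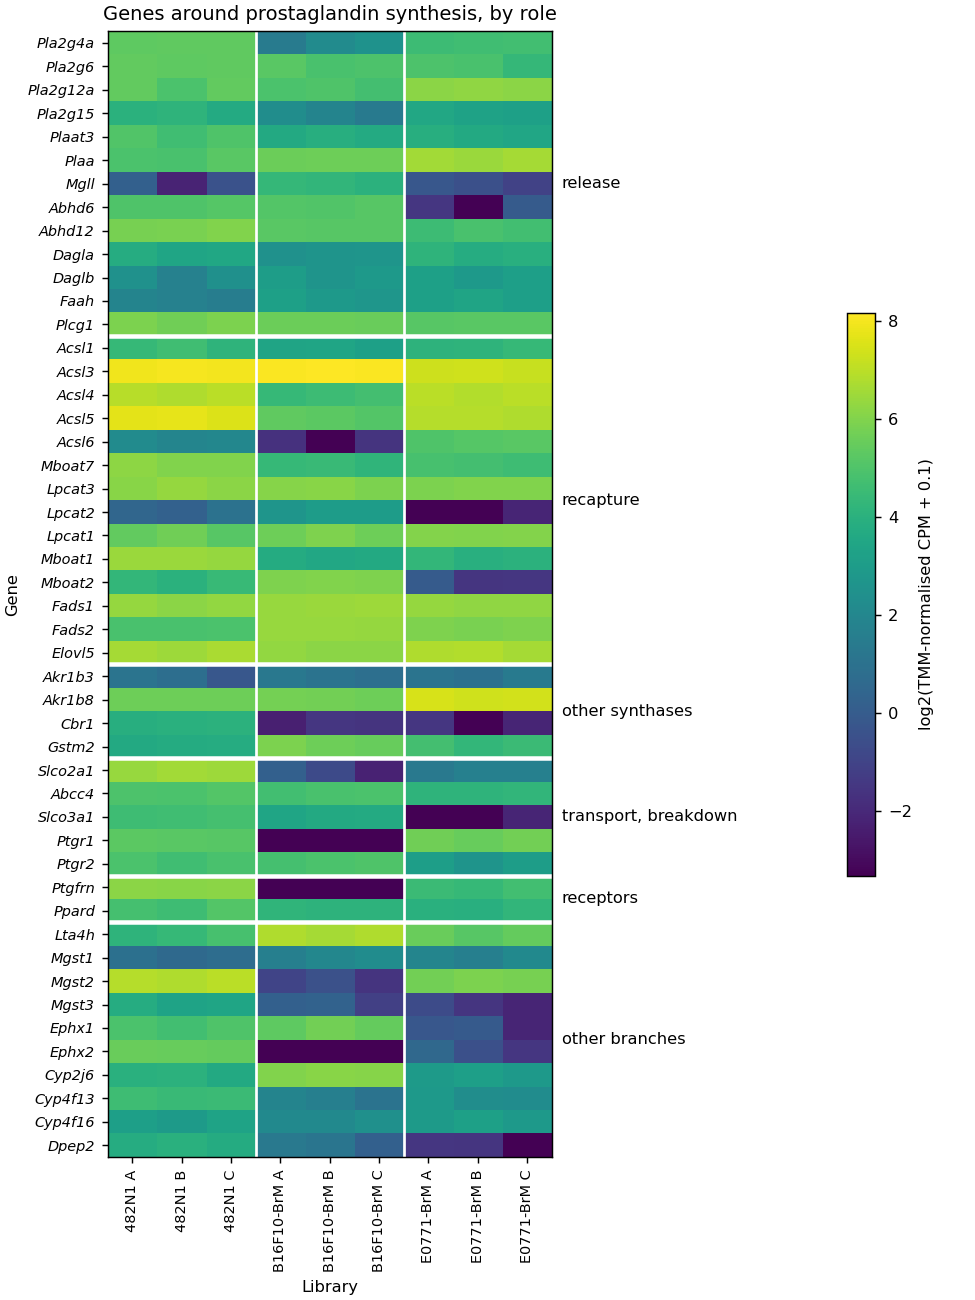
Level of the measured genes around prostaglandin synthesis, by role, as log2 of TMM-normalised CPM plus 0.1 in each library (colour scale at right, darkest at 0 counts). Ptgr1, Ptgfrn and Ephx2 are at 0 in all libraries of B16F10-BrM, and Slco2a1 is brightest in 482N1.

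Of the 13 measured genes that free arachidonate or its precursors, 4 were higher and 8 lower in the melanoma line than in 482N1. In E0771-BrM 5 were higher and 7 lower than in 482N1, and 5 higher and 5 lower than in B16F10-BrM. Together 92.3, 92.3 and 76.9% were called in the 3 comparisons, beside 77.8, 78.1 and 73.7% of all genes. Pla2g4a, the cytosolic phospholipase A2 that supplies most cyclooxygenase substrate, had 39.2, 41.5 and 41.3 CPM in 482N1 and 2.60, 4.52 and 5.71 in B16F10-BrM. Its mean in E0771-BrM was 24.9 ± 1.17 CPM (SD, n = 3). Against 482N1 the melanoma line was lower (log2 fold change -3.26 ± 0.16, edgeR adjusted p = 2.15e-23), and E0771-BrM was higher than B16F10-BrM (2.56 ± 0.17, edgeR adjusted p = 1.83e-18). The line without Ptgs2 counts thus also had the least Pla2g4a. Monoacylglycerol lipase (Mgll), which frees arachidonate from 2-arachidonoylglycerol, ran the other way: it had 18.6 CPM in B16F10-BrM, 0.595 in 482N1 and 0.578 in E0771-BrM (log2 fold change over 482N1 4.95 ± 0.31, edgeR adjusted p = 7.87e-20, and 5.59 without library A of 482N1). Its counts in libraries A, B and C of 482N1 were 8, 1 and 5, fewest in library B. Abhd6, a lipase with the same substrate, had 32.9 and 34.7 CPM in 482N1 and B16F10-BrM and 2, 0 and 7 counts in E0771-BrM (log2 fold change from 482N1 -6.41 ± 0.27, edgeR adjusted p = 5.96e-26, and -7.89 without library C).

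Arachidonate is returned to phospholipid by acyl-CoA synthetases and acyltransferases, of which, with the desaturases and elongase that make it, 14 genes were measured. In B16F10-BrM 5 were higher and 7 lower than in 482N1, in E0771-BrM 3 and 7, and in E0771-BrM against B16F10-BrM 8 and 4. The called genes were 85.7, 71.4 and 85.7% of the list in this order, beside 77.8, 78.1 and 73.7% of all genes. Acsl4, the synthetase that prefers arachidonate, had 120 ± 6.87 CPM in 482N1, 123 ± 6.57 in E0771-BrM and 23.6 ± 2.75 in B16F10-BrM (SD, n = 3). The melanoma line was below 482N1 (log2 fold change -2.35 ± 0.10, edgeR adjusted p = 5.76e-27), also for Acsl5 (-2.44 ± 0.09, edgeR adjusted p = 1.63e-29). Acsl6, a synthetase known from brain, was highest in E0771-BrM, at 34.9 CPM against 4.02 in 482N1 and 0.147 in B16F10-BrM. The acyltransferases were listed by name, and their preference for arachidonate over other fatty acids was not measured. Among them, Mboat1 was highest in 482N1 (85.2 CPM, against 12.4 in B16F10-BrM and 17.0 in E0771-BrM). So was Mboat7 (67.0 CPM, against 20.3 in B16F10-BrM and 26.3 in E0771-BrM). Lpcat3, given outside the rule for named genes, varied less, with 74.1, 66.2 and 61.5 CPM in the order 482N1, B16F10-BrM and E0771-BrM. Mboat2 was highest in B16F10-BrM (62.0 CPM, against 18.9 in 482N1 and 0.459 in E0771-BrM, or 0.245 without library A).

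Of the synthases of other prostanoids, 4 of 10 listed genes were measured. In B16F10-BrM 1 was higher and 1 lower than in 482N1, in E0771-BrM 2 and 1, and E0771-BrM against B16F10-BrM gave 1 and 1. That is 50, 75 and 50% of the 4, beside 77.8, 78.1 and 73.7% of all genes. Akr1b8, an aldo-keto reductase, had 168 CPM in E0771-BrM against 49.2 in 482N1 (log2 fold change 1.77 ± 0.08, edgeR adjusted p = 3.18e-24), and its level in B16F10-BrM, 51.8 CPM, was not called different from 482N1. Its relative Akr1b3, which makes PGF2alpha, lay between 1.503 and 2.11 CPM in the line means and was not called in any comparison, and near-identical aldo-keto reductase genes can share reads. Cbr1, the carbonyl reductase that converts PGE2 to PGF2alpha, had 112, 128 and 131 counts in 482N1. It had only 1, 2 and 2 in B16F10-BrM and 2, 0 and 1 in E0771-BrM, and the ratio of 482N1 to E0771-BrM was 125 (95% counting interval 42.5 to 609.6, resting on those 3 counts). Gstm2, a glutathione transferase with prostaglandin synthase activity and close paralogs, was highest in B16F10-BrM (51.2 CPM, against 13.2 in 482N1 and 22.7 in E0771-BrM).

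Of 5 genes of transport and breakdown measured under listed symbols, none was higher and 3 were lower in the melanoma line than in 482N1. In E0771-BrM 1 was higher and 4 lower than in 482N1, and 2 higher and 3 lower than in B16F10-BrM. These are 60, 100 and 100% of the 5, beside 77.8, 78.1 and 73.7% of all genes. Slco2a1, the prostaglandin transporter that carries PGE2 into cells, had 658, 801 and 704 counts in 482N1, 10, 4 and 1 in B16F10-BrM and 19, 26 and 25 in E0771-BrM. The 482N1 mean, 90.2 ± 5.82 CPM (SD, n = 3), exceeded the other means 163-fold and 31.3-fold, with log2 fold changes of -7.26 ± 0.21 for B16F10-BrM (edgeR adjusted p = 2.61e-33) and -4.96 ± 0.16 for E0771-BrM (edgeR adjusted p = 1e-30). Library A of B16F10-BrM sets the size of the first: without it the mean in that line was 0.309 instead of 0.553 CPM, and the log2 fold change -8.15. The line with the most Ptgs2 and Ptges was thus also the line with the most transporter. Ptgr1, a prostaglandin reductase, had no count in B16F10-BrM and was at least 324-fold higher in 482N1 and at least 433-fold higher in E0771-BrM. Its rise in E0771-BrM over 482N1 was small (0.42 ± 0.11, edgeR adjusted p = 0.000694) and was no longer called with only library B of these lines (0.30, edgeR adjusted p = 0.229). Ptgr2, the second reductase, was lower in E0771-BrM (7.66 CPM) than in 482N1 (27.9) and B16F10-BrM (29.8). Ptgr3 is an alias of Zadh2, examined after the values were seen, which had 10.4 ± 0.190 CPM in 482N1, 23.8 ± 2.71 in E0771-BrM and 21.7 ± 2.99 in B16F10-BrM (SD, n = 3). Abcc4, which exports prostaglandins, varied least of the 5, with 31.7, 28.6 and 18.0 CPM in the order 482N1, B16F10-BrM and E0771-BrM. Slco3a1, a further transporter of this family, had 25.5 and 12.1 CPM in 482N1 and B16F10-BrM and 1 count in E0771-BrM.

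Of 12 listed receptor genes only Ptgfrn and Ppard were measured, and the prostanoid receptors themselves are not analysed here. Both were lower in B16F10-BrM and in E0771-BrM than in 482N1, and 1, Ptgfrn, was higher in E0771-BrM than in B16F10-BrM. Of all genes, 39.9% and 40.4% were lower in these comparisons with 482N1, and 37.2% were higher in the last. Ptgfrn, a membrane protein that regulates the PGF receptor, had 71.1 ± 1.67 CPM in 482N1 and 22.8 ± 2.36 in E0771-BrM (SD, n = 3), with no count in B16F10-BrM, where it was at least 620-fold and at least 199-fold lower. Ppard, a nuclear receptor that binds fatty acid derivatives, was highest in 482N1 (28.6 CPM, against 17.4 in B16F10-BrM and 16.6 in E0771-BrM). In the leukotriene and epoxide branches, 10 genes were measured, of which 4 were higher and 6 lower in B16F10-BrM than in 482N1. In E0771-BrM, 2 were higher and 7 lower than in 482N1, and 4 higher and 5 lower than in B16F10-BrM. These are 100, 90 and 90% of the 10, beside 77.8, 78.1 and 73.7% of all genes. Mgst2, a microsomal glutathione transferase that can make leukotriene C4, had 118.5 CPM in 482N1, 56.2 in E0771-BrM and 0.426 in B16F10-BrM (log2 fold change from 482N1 -8.09 ± 0.19, edgeR adjusted p = 2.78e-37). The soluble epoxide hydrolase Ephx2, which inactivates epoxides of arachidonate, had 44.9 CPM in 482N1, 0.748 in E0771-BrM (0.425 without library A) and no count in B16F10-BrM.

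Of 38 measured genes described as regulators of Ptgs2 or Ptges, 12 were higher and 20 lower in B16F10-BrM than in 482N1. In E0771-BrM 15 were higher and 19 lower than in 482N1, and 22 higher and 15 lower than in B16F10-BrM. The shares called were 84.2, 89.5 and 97.4%, beside 77.8, 78.1 and 73.7% of all genes. Egr1, an early-response factor known to act on the Ptges promoter, had 730, 836 and 772 counts in 482N1 and 0 in every library of the other lines, so its 482N1 level was at least 851-fold that of B16F10-BrM and at least 789-fold that of E0771-BrM. Whether these zeros come from the cells or from the counting was not tested. The exact EGR letters were not found in the Ptges window shown above, which held GC boxes. A search for exact letters cannot show whether a factor binds there. Fosl1, an AP-1 subunit, had 55.6 CPM in 482N1, 187 in E0771-BrM and no count in B16F10-BrM. The interleukin-1 receptor gene Il1r1, upstream of Ptgs2 induction, had 29.4, 9.35 and 0 CPM in 482N1, E0771-BrM and B16F10-BrM, the order of Ptgs2. Its co-receptor gene Il1rap had another order, with 0.805 CPM in 482N1, 7.75 in E0771-BrM and 3.98 in B16F10-BrM (log2 fold change of E0771-BrM over 482N1 3.26 ± 0.35, edgeR adjusted p = 7.46e-12, and 4.12 without library A of 482N1). Zfp36 and Zfp36l2, whose proteins destabilise AU-rich messengers such as that of Ptgs2, were lower in the melanoma line than in 482N1 (log2 fold changes -3.24 ± 0.36 and -3.05 ± 0.09, edgeR adjusted p = 2.08e-11 and 2.51e-33). Celf2, an RNA-binding protein described as holding back Ptgs2 translation, had 331 CPM in 482N1, 10.4 in E0771-BrM and 649 in B16F10-BrM.

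Among HSP90 genes and co-chaperones, the partners of the Ptges3 product, 14 were measured. In B16F10-BrM 11 were higher and 3 lower than in 482N1 (median log2 fold change 0.76), and in E0771-BrM 10 and 3 (median 0.85). Of all genes, 38.0% were higher and 39.9% lower in the first comparison and 37.7% and 40.4% in the second, with medians of -0.04. Between E0771-BrM and B16F10-BrM 6 were higher and 5 lower (median -0.13), beside 37.2% and 36.5% of all genes (median 0.02). Ptges3 itself was 1.58-fold and 1.78-fold higher than in 482N1, and its link to these genes was not tested. Hsp90aa1, the inducible cytosolic HSP90, had 3198 CPM in B16F10-BrM and 1057 in 482N1 (log2 fold change 1.60 ± 0.07, edgeR adjusted p = 1.3e-26), and Ahsa1, an activator of its ATPase, 48.4 and 17.7. Hsp90ab1, the constitutive cytosolic HSP90 and the more abundant in counts, is given outside the rule for named genes. It went the other way in the melanoma line, at 7372 CPM against 11970 in 482N1 and 11826 in E0771-BrM (log2 fold change from 482N1 -0.70 ± 0.07, edgeR adjusted p = 1.86e-13). Cdc37, the co-chaperone for kinases, went the other way in E0771-BrM, at 124 CPM against 262.5 in 482N1 and 292.5 in B16F10-BrM. Of 8 lipocalins other than Ptgds, Rbp4, the retinol carrier of plasma, was measured. It had 177.6 CPM in 482N1, 68.3 in E0771-BrM and no count in B16F10-BrM, the line in which Ptgds was highest.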

How the data were processed

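RNA from 3 cell lines, 3 libraries each, was sequenced after poly(A) selection with a stranded TruSeq kit. The values deposited by the authors are raw counts of reads for each gene symbol; per the submitters' processing notes FastQC, TopHat2 2.0.10, Bowtie 1.0.0, SAMtools 0.1.19, Cufflinks 2.2.1 and build GRCm39 were used. The counting tool, annotation and gene selection are not given in the sources used here. The lowest third-highest count of any gene was 8.

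Counts were fitted in R 4.3.3 with edgeR 4.0.16 (filterByExpr, TMM, robust quasi-likelihood F test, 2-sided, 1 coefficient per line, all 9 libraries) over 11037 genes, with Benjamini-Hochberg adjustment and a threshold of 0.05. SEs are the log2 fold change divided by the square root of F. Folds without log2 are ratios of mean CPM. Where the lower group had 3 counts or fewer, they are ratios of pooled counts over pooled library sizes. A group with no count was set to 3 counts over the group for "at least", and 1 to 3 counts got an exact 95% interval. The procedure was tested on simulated data. The members, lists and rules were chosen with earlier results of these data known. Named genes were all members, every measured gene of lists with up to 8 measured, otherwise up to 5 called genes per comparison by absolute log2 fold change, of which a selection is printed, and the 5 nearest genes of Ptgs2, Ptges and Ptgds. Alternatives were DESeq2 size factors, upper-quartile factors, DESeq2 1.42.0, limma-voom (limma 3.58.1), no filter, a block on the library letter, 1 CPM in 3 libraries, only the 2 lines compared and each library left out. Removal of ribosomal RNA genes, only library B of 482N1 and E0771-BrM, and the bases after the start were added after the data were seen. Promoters are from RefSeq (GRCm38.p6), and all 6 members matched 1 entry each. The result of 1 marker list is not reported here.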

Additional observations from a re-analysis of the deposited data

How the results depend on the processing

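The counts of pathway genes called stayed within 1.5 times the reported ones in every alternative run: 83 to 88 for B16F10-BrM against 482N1, 80 to 90 for E0771-BrM against 482N1 and 79 to 90 for E0771-BrM against B16F10-BrM. With a replicate block on the library letter they were 88, 90 and 88. Deviations of same-letter libraries correlated at -0.0101 to 0.0876 over 9 pairs, and those of libraries with different letters at -0.0745 to 0.0353. The letters were not used to pair samples, and whether libraries of the same letter share a small effect was not tested. For the named genes, 2104 of 2105 values under alternatives kept their direction and their side of the threshold, the exception being Ptgr1 in E0771-BrM against 482N1. Of 102 alternative member levels, 6 moved by more than 1 SD. With upper-quartile factors Ptgs2 in 482N1 was 13.8 CPM and Ptges3 in 482N1 268 CPM. With only library B, Ptgs2 in 482N1 was 14.3, Ptges in 482N1 188, Ptges2 in E0771-BrM 11.9 and Ptgds in E0771-BrM 0.12 CPM, which is that library's own value. By Pearson's r, 2, 0 and 1 of the 5 nearest genes of Ptgs2, Ptges and Ptgds were also among the top 5. Depth limits Ptges and Ptgs1 in B16F10-BrM and Ptgds in E0771-BrM, with 1, 16 and 14 counts in all. Leaving out 1 library moved the fold of these further genes of few counts by over 1.5 times, with no call changed: Cbr1, Lpcat2, Mgst3 and Slco3a1, all through E0771-BrM.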

Other observations

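Of the 38 measured regulators of Ptgs2 or Ptges, 11 had their highest mean in 482N1, where Ptgs2 was highest, 15 in E0771-BrM and 12 in B16F10-BrM. The same split over all genes was not counted, so these numbers are not a result about the regulators. The examples here were chosen after their values were seen. Rela, an NF-kappaB subunit, had 180 ± 9.94 CPM in E0771-BrM, 86.2 ± 9.77 in 482N1 and 46.6 ± 5.81 in B16F10-BrM (SD, n = 3). Nfkbia, the inhibitor that NF-kappaB itself induces, had 635 ± 58.2, 151 ± 10.3 and 96.0 ± 9.95 CPM in the same order. Cebpb, which binds C/EBP motifs, had 23.01 ± 3.22, 8.67 ± 2.23 and 3.998 ± 0.337 CPM. Relb, another NF-kappaB subunit, was highest in 482N1 instead, with 16.2 ± 0.838 CPM against 6.21 ± 1.70 in E0771-BrM and 9.04 ± 1.33 in B16F10-BrM, as was Cebpd, with 10.7 ± 1.19, 5.04 ± 0.826 and 1.55 ± 0.374 CPM. Stat3 had 71.3 ± 7.45, 35.0 ± 3.07 and 28.2 ± 1.98 CPM, and Hif1a 199 ± 7.96, 136 ± 4.53 and 98.3 ± 2.59 CPM, in the order 482N1, E0771-BrM and B16F10-BrM. Lta4h, the leukotriene A4 hydrolase, was highest in the melanoma line, with 106.9 ± 7.55 CPM against 22.1 ± 5.63 in 482N1 and 42.3 ± 5.21 in E0771-BrM (SD, n = 3).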
